A study of Mus musculus with 8 samples.

Results

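Complement components and regulators were followed as 8 genes given by name, with no threshold on a measured value, although earlier results of these data were known when they were chosen: *C1ra*, *C1s1*, *C2*, *C4b*, *C3*, *Cfb*, *Serping1* and *Cd59a*. All 8 were among the 31053 genes of the count tables and all 8 were among the 10181 genes that entered the test. The cells were fibro/adipogenic progenitors (FAPs), the mesenchymal progenitors of skeletal muscle, taken from hind limbs of 45-day-old C57BL/10ScSn-Dmdmdx/J (*mdx*) mice, which lack dystrophin. They were depleted of CD45+ and CD31+ cells, sorted as ITGA7- SCA-1+ and divided by the amount of SCA-1 on their surface into SCA1-High-FAPs and SCA1-Low-FAPs, with 4 replicates each from 4 mice. Every sample of both cell states carried the *mdx* allele and spent 5 days in growth medium with fetal bovine serum before RNA extraction, so the libraries describe cultured cells and not cells fresh from the muscle. No wild type library was analysed here. SCA1-Low-FAPs served as the control.

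Complement is a cascade of secreted proteases and their cofactors that marks cells and debris for removal. In the classical pathway, the recognition protein C1q carries the proteases C1r and C1s, and C1s cleaves C4 and C2, whose fragments form the enzyme that cleaves C3. In the alternative pathway, C3b pairs with factor B, which factor D cleaves. Regulators hold the cascade in check, C1 inhibitor at the C1 proteases and CD59 at the membrane attack complex. Hepatocytes make most of the plasma proteins, while fibroblasts and adipocytes are known to make several of them locally, factor D being the adipocyte product also called adipsin.

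Each library held between 1880561 and 3985656 counts on genes, and 3 counts, the floor used here, were worth 0.792 to 1.63 CPM by library. CPM is a gene's count scaled to a common library size, here after TMM normalisation, and the floor covers counting error only, because PCR duplicates were not removed by molecular identifiers. The libraries are 3′ libraries, in which a transcript gives reads near its end whatever its length. Log2 fold changes set SCA1-Low-FAPs against SCA1-High-FAPs, so mRNAs more abundant in SCA1-High-FAPs have negative values. A gene was called differentially expressed when its adjusted *p*-value was below 0.05 and its fold change exceeded 0.5 on the log2 scale. In all, 782 genes were differentially expressed, and the median log2 fold change of all tested genes was 0.0003. *Ly6a*, which encodes SCA-1, ran against the names of the cell states after culture, with 492 to 919 CPM in SCA1-High-FAPs and 1014 to 1156 CPM in the SCA1-Low-FAPs libraries (change of 0.61 on the log2 scale, SE 0.17, adjusted *p* = 0.0341). The names are those of the labels, which rest on surface protein at the sort. *Pdgfra*, the receptor that defines FAPs, was present in every library at 157 to 291 CPM. Of the list of 8 FAP or mesenchymal markers that holds both genes, *Dpp4* was at 0 in all libraries and 7 were tested. Among these 7, *Dcn* was differentially expressed towards SCA1-High-FAPs (log2 fold change −2.08, adjusted *p* = 0.0167) and *Ly6a* towards SCA1-Low-FAPs, beside 4.36% and 3.32% of all tested genes. Replicate 3 of SCA1-Low-FAPs stood apart from the other replicates of its state, and without it 1017 genes were differentially expressed, and values without it are given beside the complement genes below.

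*C1ra*, *C2*, *C4b* and *Cfb* were differentially expressed, all of them higher in SCA1-High-FAPs, which is 4 of 8 genes where 4.36% of all tested genes were differentially expressed in that direction. *C2*, *C4b*, *C3* and *Cfb* passed the filter on low counts in all 4 libraries of SCA1-High-FAPs but in 0, 3, 2 and 2 of SCA1-Low-FAPs, so their entry into the test was tied to a high level in the former and the count is a description. When 10 counts were required in every sample, 4 of the 8 genes could be tested. Of these, *C1ra* was called higher in SCA1-High-FAPs, where 5.02% of all genes tested were called in that direction. None was differentially expressed in the other direction by edgeR or DESeq2, and none reached an unadjusted *p* of 0.05 there, while 3.32% of all tested genes were differentially expressed in that direction. DESeq2 and edgeR without robust estimation each called 7 of the 8, all but *Cd59a*, where 4.86% and 4.52% of all genes tested in this way were called higher in SCA1-High-FAPs. The count was 6 without replicate 3 of SCA1-Low-FAPs, beside 5.64% of all tested genes called higher in SCA1-High-FAPs. It was 1 without replicate 4 of SCA1-Low-FAPs, beside 2.38%. *C3*, *Serping1* and *C1s1* also had negative log2 fold changes, between −4.57 and −1.36, but with adjusted *p*-values of 0.0531, 0.0596 and 0.0739 they missed the threshold. *Cd59a* did not follow the other genes. The replicates of the cell states did not overlap for 6 of the 8 genes, against 14.1% of all tested genes in either direction, the exceptions being *C1s1* and *Cd59a*. The median log2 fold change of the 8 genes was −1.97. In bulk samples like these, fewer cells that express a gene and less RNA per cell cannot be told apart.

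**Figure D1:**
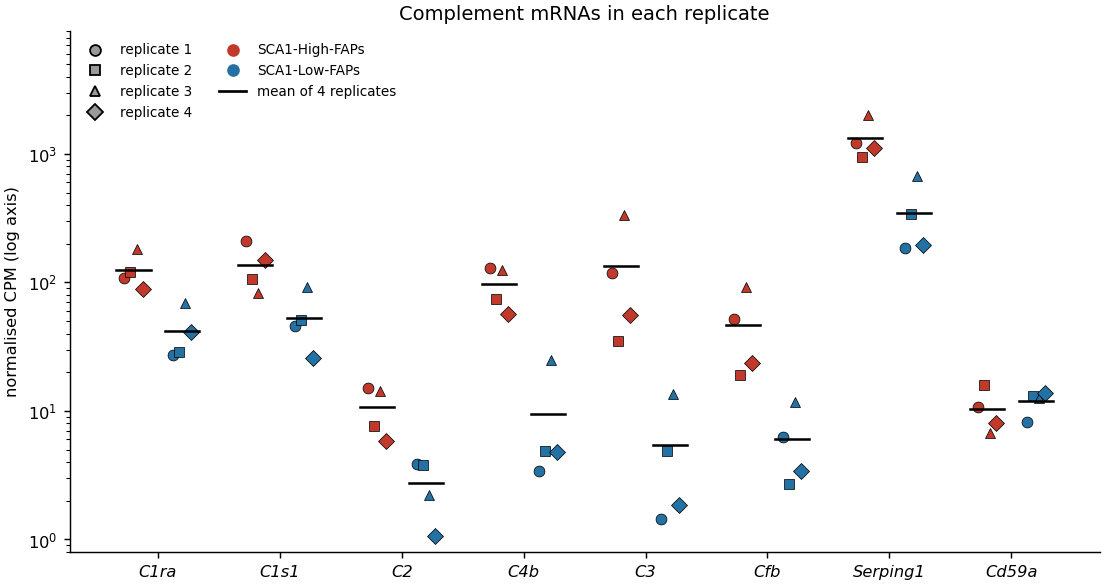
Normalised CPM on a log axis of the 8 complement genes in each replicate of SCA1-High-FAPs (red) and SCA1-Low-FAPs (blue), with the mean of 4 replicates as a line and a marker shape for each replicate number. For 6 genes every red point lies above every blue one, and replicate 3 is the highest blue point in 6 of the 8 genes.

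*C1ra* (ENSMUSG00000055172, chr6:124512405-124523443 on GRCm38, plus strand) encodes the protease C1r, which activates C1s. It stood at 108, 121, 183 and 88.4 CPM in replicates 1 to 4 of SCA1-High-FAPs and at 27.1, 28.9, 69.8 and 40.9 CPM in those of SCA1-Low-FAPs. The lowest replicate of SCA1-High-FAPs was thus above the highest of SCA1-Low-FAPs, and every replicate of both states was well above the floor of the depth. Its log2 fold change was −1.57 (SE 0.30, adjusted *p* = 0.00634). *C1ra* kept its call in each of the 8 fits that left out a replicate, with adjusted *p*-values of 0.000177 to 0.0377, and without replicate 3 of SCA1-Low-FAPs its log2 fold change was −1.95.

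*C1s1* (ENSMUSG00000038521, chr6:124530345-124542359, minus strand) encodes C1s, the protease that cleaves C4 and C2. Its replicates read 210, 107, 82.2 and 148 CPM in SCA1-High-FAPs and 45.4, 50.6, 91.4 and 25.6 CPM in SCA1-Low-FAPs. Replicate 3 was both the lowest of the former and the highest of the latter, and there the states overlapped. A log2 fold change of −1.36 (SE 0.40, 95% confidence interval −2.26 to −0.46) had an adjusted *p* of 0.0739 and did not pass. Without replicate 3 of SCA1-Low-FAPs the value was −1.78 with an adjusted *p* of 0.00308. The adjusted *p* was 0.0218 by edgeR without robust estimation and 0.0016 by DESeq2. *C1s1* passed in no other fit that left out a replicate (adjusted *p* of 0.063 to 0.183), nor without a filter (0.188). When replicate numbers were fitted as well, the adjusted *p* was 0.110 by edgeR and 0.00153 by DESeq2. Although C1r and C1s act as partners, the log2 ratio of *C1ra* to *C1s1* CPM within a library varied from −0.96 to 1.16 among SCA1-High-FAPs and from −0.81 to 0.68 among SCA1-Low-FAPs, so the ranges of the cell states overlapped.

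*C4b* (ENSMUSG00000073418, chr17:34728380-34743882, minus strand) encodes C4, the source of the C4b fragment of the classical C3-cleaving enzyme. SCA1-High-FAPs held 130, 74.1, 126 and 56.8 CPM and SCA1-Low-FAPs 3.38, 4.90, 24.7 and 4.75 CPM. Each replicate of SCA1-High-FAPs lay above all of SCA1-Low-FAPs, and replicate 3 of the latter stood 5.69-fold above the mean of the other replicates of its state. This gave a log2 fold change of −3.28 (SE 0.63, adjusted *p* = 0.0181). Without that replicate it was −4.46 (SE 0.37, adjusted *p* = 9.19e-06), whereas without replicate 2 or replicate 4 of SCA1-Low-FAPs the adjusted *p* was 0.0583 or 0.0654 and the call was lost. *C4a*, the near-identical neighbour of *C4b*, was not analysed here, and the last 300 bases of the *C4b* and *C4a* transcripts in GENCODE M21 are 98% identical, so reads that fit both would be left out of the counts of *C4b*, which are to that extent uncertain. Set against *C1ra* in the same library, *C4b* was also lower in SCA1-Low-FAPs, with a log2 ratio of −0.40 ± 0.46 (SD, n = 4) in SCA1-High-FAPs and −2.54 ± 0.74 (SD, n = 4) in SCA1-Low-FAPs, and ranges that did not overlap. The genes of the same pathway thus differed between the states by unequal amounts, although this ratio was not tested.

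*C2* (ENSMUSG00000024371, chr17:34862604-34898265, minus strand) encodes the protease subunit of the classical C3-cleaving enzyme and had few reads. Counts were 32, 17, 34 and 16 in SCA1-High-FAPs and 8, 7, 7 and 4 in SCA1-Low-FAPs, which is 15.1, 7.69, 14.2 and 5.87 CPM against 3.87, 3.81, 2.22 and 1.06 CPM. The states did not overlap. *C2* passed the filter on low counts, 4.30 CPM in 4 libraries, through SCA1-High-FAPs alone, since no library of SCA1-Low-FAPs reached that level, so its entry into the test was tied to a difference. In the test it had a log2 fold change of −2.01 (SE 0.58, adjusted *p* = 0.0424), and the call was lost in 7 of the 8 fits that left out a replicate, with adjusted *p*-values up to 0.149. Without replicate 3 of SCA1-Low-FAPs its log2 fold change was −1.94 (adjusted *p* = 0.0797).

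*C3* (ENSMUSG00000024164, chr17:57203970-57228136, minus strand) encodes the component on which all activation pathways converge. Counts were 253, 77, 795 and 152 in SCA1-High-FAPs and 3, 9, 43 and 7 in SCA1-Low-FAPs, or 119, 34.8, 332 and 55.7 CPM against 1.45, 4.90, 13.6 and 1.85 CPM. The lowest replicate of SCA1-High-FAPs was 2.55-fold above the highest of SCA1-Low-FAPs, and replicate 1 of the latter lay at the floor of its depth. The spread within each state was wide as well, with a highest replicate 9.54-fold above the lowest in SCA1-High-FAPs and 9.41-fold above it in SCA1-Low-FAPs, and in both states that highest replicate was number 3. Its log2 fold change was −4.57, the lowest of the 8 genes, with an SE of 1.06, a 95% confidence interval of −7.13 to −2.02 and an adjusted *p* of 0.0531, just above the threshold. The adjusted *p* was 0.00124 by edgeR without robust estimation and 8.52e-05 by DESeq2. It fell below the threshold without replicate 3 of SCA1-Low-FAPs (log2 fold change −5.73, adjusted *p* = 0.045), replicate 3 of SCA1-High-FAPs (−3.62, adjusted *p* = 0.0323) or replicate 2 of SCA1-High-FAPs (−4.88, adjusted *p* = 0.0414). In every other fit that left out a replicate it rose, to between 0.0689 and 0.158, and without a filter it was 0.0654.

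*Cfb* (ENSMUSG00000090231, chr17:34856374-34862518, minus strand) encodes factor B, the alternative pathway protease that takes the place of C2. Its replicates stood at 52.3, 19.0, 92.7 and 23.5 CPM in SCA1-High-FAPs and 6.28, 2.72, 11.7 and 3.43 CPM in SCA1-Low-FAPs, again without overlap. As for *C3*, replicate 3 was the highest of each state. *Cfb* had a log2 fold change of −2.91 (SE 0.58, adjusted *p* = 0.0117), and the adjusted *p* was 0.0536 or 0.0573 without replicate 1 or replicate 4 of SCA1-Low-FAPs, which ended the call. Without replicate 3 of that state the log2 fold change was −3.51 (adjusted *p* = 0.00268).

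Among the regulators, *Serping1* (ENSMUSG00000023224, chr2:84765387-84775444, minus strand) encodes C1 inhibitor, which inactivates C1r and C1s. It read 1215, 941, 2024 and 1121 CPM in SCA1-High-FAPs and 186, 340, 668 and 194 CPM in SCA1-Low-FAPs. Replicate 3 was the highest in both states and the states did not overlap. A log2 fold change of −1.93 (SE 0.49, 95% confidence interval −3.08 to −0.78) had an adjusted *p* of 0.0596 and did not pass. Without replicate 3 of SCA1-Low-FAPs it was −2.48 (SE 0.30, adjusted *p* = 0.00042), and the adjusted *p* was 0.00349 by edgeR without robust estimation and 0.00266 by DESeq2. *Serping1* passed in no other fit that left out a replicate (adjusted *p* of 0.0703 to 0.144), nor without a filter (0.0998).

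*Cd59a* (ENSMUSG00000032679, chr2:104095801-104115354, plus strand) encodes CD59, the membrane-bound inhibitor of the membrane attack complex, which a lipid anchor holds on the cell surface, whereas the products of the other genes are secreted. Its replicates stood at 10.8, 15.8, 6.68 and 8.07 CPM in SCA1-High-FAPs and 8.22, 13.1, 12.7 and 13.7 CPM in SCA1-Low-FAPs, with the states overlapping over most of their ranges. The log2 fold change was 0.21 (SE 0.40, adjusted *p* = 0.825), with a 95% confidence interval of −0.63 to 1.06. Differences within that interval are therefore not excluded, at a depth of 16 to 52 counts per library. Under every alternative tried its log2 fold change lay between 0.05 and 0.50 and no call was made.

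The replicates did not rank alike for all genes. Replicate 3 of SCA1-Low-FAPs was the highest of its state for 6 of the 8 genes, the exceptions being *C2* and *Cd59a*, while replicate 1 of that state was the lowest for 5. In SCA1-High-FAPs, replicate 3 was the highest for 4 genes, namely *C1ra*, *C3*, *Cfb* and *Serping1*, and the lowest for *C1s1* and *Cd59a*. Against the mean of the other replicates of its state, replicate 3 of SCA1-High-FAPs stood 4.75-fold higher for *C3* and 2.94-fold higher for *Cfb*, but at 0.53 of that mean for *C1s1*. Summed over the 8 genes, SCA1-High-FAPs held 1320 to 2860 CPM and SCA1-Low-FAPs 282 to 894 CPM. *Serping1* made up most of these tag counts, and without it the sums were 379 to 837 CPM and 91.3 to 226 CPM.

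**Figure D2:**
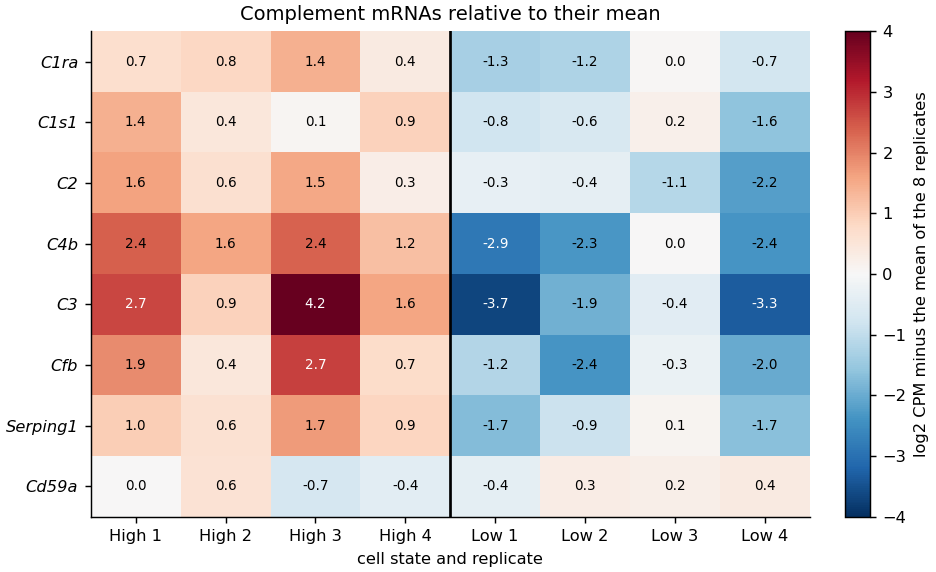
Log2 CPM of the 8 complement genes (rows) in the 8 libraries (columns) after the mean of the 8 libraries was subtracted from each gene, with red above and blue below that mean. *C3* spans the widest range, from −3.7 to 4.2, and the column of replicate 3 of SCA1-Low-FAPs lies closer to 0 than its neighbours for most genes.

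The wider complement system was read from lists of 47 further genes, of which 46 were in the tables, 29 had a count in any library and 7 entered the test. Of these 7, *Colec12* was differentially expressed, higher in SCA1-High-FAPs (beside 4.36% of all tested genes), and the median log2 fold change was −1.03. *Colec12*, a membrane collectin, averaged 119 ± 11.1 CPM and 58.5 ± 14.4 CPM (SD, n = 4 each), with a log2 fold change of −1.03 (SE 0.19, adjusted *p* = 0.00325).

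*Cfd*, encoding factor D, had the lowest log2 fold change of the tested complement genes, −5.46 (SE 1.25), with an adjusted *p* of 0.0534 that did not pass. Its replicates read 1036, 425, 980 and 103 CPM in SCA1-High-FAPs and 7.73, 1.63, 42.8 and 2.64 CPM in SCA1-Low-FAPs, and without replicate 3 of the latter the value was −7.36 (adjusted *p* = 0.0249). By DESeq2 its adjusted *p* was 8.08e-05. Of the other fits that left out a replicate, it passed only without replicate 4 of SCA1-High-FAPs (adjusted *p* = 0.0472). The rest gave 0.0911 to 0.156. *Clu*, encoding clusterin, a regulator of the terminal pathway, averaged 86.6 ± 38.9 CPM and 20.4 ± 17.8 CPM (SD, n = 4 each), with a log2 fold change of −2.02 and an adjusted *p* of 0.116. Without replicate 3 of SCA1-Low-FAPs it was −2.71 and passed (adjusted *p* = 0.0159), as it did without robust estimation (adjusted *p* = 0.0176). *Clu* did not pass by DESeq2 (adjusted *p* = 0.0523) or in any other fit that left out a replicate (0.0771 to 0.268).

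*Masp1*, encoding proteases that start the lectin pathway, pointed the other way. It averaged 61.7 ± 31.3 CPM in SCA1-High-FAPs against 167 ± 63.8 CPM in SCA1-Low-FAPs (SD, n = 4 each), and the replicates, at 31.1 to 96.4 CPM and 110 to 255 CPM, did not overlap. Its log2 fold change of 1.43 (SE 0.39) had an adjusted *p* of 0.0565 and did not pass, while DESeq2 gave 0.000452. Without replicate 3 of either state it passed, at 1.58 (adjusted *p* = 0.0329) when that of SCA1-Low-FAPs was left out and at 1.73 (adjusted *p* = 0.0362) when that of SCA1-High-FAPs was. No other fit that left out a replicate passed (adjusted *p* of 0.0645 to 0.1215). *Cr1l*, encoding the membrane regulator Crry, stood at 63.4 ± 11.9 CPM and 59.8 ± 9.90 CPM (SD, n = 4 each), and its log2 fold change of −0.08 (SE 0.20, adjusted *p* = 0.869) turned to 0.05 or 0.01 when replicate 1 of SCA1-High-FAPs or of SCA1-Low-FAPs was left out.

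Other parts of the cascade gave few or no reads in these cells. Of the C1q chains, *C1qa* had 1 count over all libraries and *C1qb* and *C1qc* had none, which allows up to 0.792 to 1.63 CPM per library. *Hc*, which encodes C5, had 4 counts in all and *C7* had 3. None of the 6 genes of the terminal components entered the test. The anaphylatoxin receptor genes *C3ar1* and *C5ar1* had 1 and 3 counts in all. *Cfi*, encoding the protease that inactivates C3b and C4b, was not tested and had 6, 5, 26 and 22 counts in SCA1-High-FAPs and 0, 0, 10 and 0 in SCA1-Low-FAPs. *Cd55*, encoding a membrane inhibitor of the C3-cleaving enzymes, was also below the filter, at 24, 8, 16 and 35 counts against 4, 0, 7 and 15. *Cd46* and *Cfp*, the latter encoding properdin, had at most 10 and 17 counts in a library. The paralogues *C1rb*, *C1s2* and *Cd59b* had 6, 1 and 26 counts in all. In the best local alignment of the last 300 bases, 22 bases matched between *C1ra* and *C1rb* transcripts. There were 236 for *C1s1* and *C1s2* and 164 for *Cd59a* and *Cd59b*, fewer than the 294 for *C4b* and *C4a*. Identity within the aligned stretch was not measured, so this cannot show whether reads that fit both copies were left out.

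**Figure D3:**
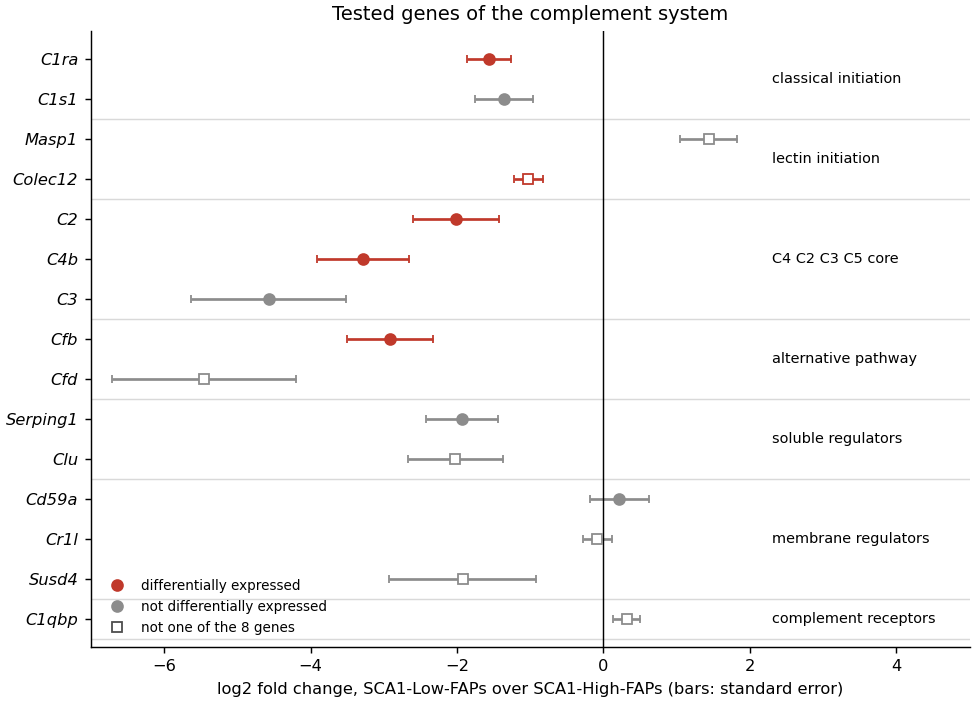
Log2 fold changes of the 15 tested genes of the complement lists, grouped by role, with bars for the standard error. Circles are the 8 followed genes, open squares the other 7, and red marks differential expression. All 5 red symbols lie left of 0, and *Masp1* lies farthest to the right at 1.43.

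Complement genes of stromal cells are known to be induced by interferons and by the acute phase cytokines, and lists of both responses were set beside them. The interferon list held 22 genes, of which 15 were tested. *B2m*, *Iigp1* and *Ifih1* were differentially expressed, all higher in SCA1-High-FAPs, beside 4.36% of all tested genes in that direction. All 15 log2 fold changes were negative, beside 5087 of all 10181 tested genes, and their median was −0.73. *Iigp1*, encoding an interferon-inducible GTPase, stood at 99.3, 54.2, 98.5 and 56.1 CPM in SCA1-High-FAPs and 10.2, 26.1, 27.3 and 12.1 CPM in SCA1-Low-FAPs (log2 fold change −2.03, SE 0.33, adjusted *p* = 0.00165). *Ifih1*, a sensor of viral RNA, was at −1.78 on the log2 scale (adjusted *p* = 0.0157) and *B2m*, the light chain of MHC class I, at −0.67 (adjusted *p* = 0.00763). *H2-D1* and *Cxcl9* had adjusted *p*-values of 0.0509 and 0.0539, with log2 fold changes of −0.73 and −2.65.

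Of the 19 genes of the acute phase list, 16 were tested and 3 were differentially expressed, again all higher in SCA1-High-FAPs (beside 4.36% of all tested genes). Of their log2 fold changes, 14 were negative and 2 positive, with a median of −0.48. *Hp*, encoding haptoglobin, stood at 752, 556, 1333 and 371 CPM in SCA1-High-FAPs and 24.6, 107, 146 and 41.4 CPM in SCA1-Low-FAPs (log2 fold change −3.23, SE 0.71, adjusted *p* = 0.044). For *Lbp*, which binds bacterial lipopolysaccharide, the difference was −2.43 on the log2 scale (adjusted *p* = 0.0378) and for *Saa3*, a serum amyloid A gene, −4.05 (adjusted *p* = 0.00923). *Saa3* had 0, 0, 9 and 4 counts in SCA1-Low-FAPs, below the filter on low counts in every library of that state. It thus entered the test through SCA1-High-FAPs alone, and its fold change rests on few or no reads in SCA1-Low-FAPs. The highest replicate of SCA1-High-FAPs for *Hp*, *Lbp* and *Saa3* was number 3, the replicate that was also highest for *C3* and *Cfb*. Not all genes of the list shared this. *Il6*, *Ccl2*, *Cxcl1* and *Socs3* were at their lowest of SCA1-High-FAPs in that replicate, at 5.01, 19.2, 13.4 and 62.6 CPM. *Ccl2*, encoding a monocyte chemokine, averaged 50.8 ± 29.7 CPM in SCA1-High-FAPs against 119 ± 15.1 CPM in SCA1-Low-FAPs (SD, n = 4 each, log2 fold change 1.22, adjusted *p* = 0.0791), and *Lrg1* was at −3.30 (adjusted *p* = 0.0772). The transcription factor genes *Cebpb*, *Cebpd*, *Stat3* and *Nfkb1* had log2 fold changes of −0.12, −0.37, −0.21 and −0.80, and none of them was differentially expressed. Both lists were chosen with earlier results of these data known.

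Adipocyte markers moved with the complement genes. Summed over the 8 genes of that list, SCA1-High-FAPs held 1111 to 5869 CPM and SCA1-Low-FAPs 120 to 630 CPM, and *Lep* was at 0 in all libraries. Of the 6 tested genes, 4 were differentially expressed, all higher in SCA1-High-FAPs, beside 4.36% of all tested genes in that direction. *Adipoq* stood at 608, 169, 421 and 60.1 CPM against 9.18, 9.26, 24.4 and 4.22 CPM, so that replicate 3 was the highest of SCA1-Low-FAPs there too, while replicate 4 was the lowest of both states. Leucocyte markers summed to 28 to 48.4 CPM in SCA1-High-FAPs against 18 to 24.1 CPM in SCA1-Low-FAPs. Of that list of 10 genes, 4 were at 0 in all libraries, among them *Adgre1*, *Itgam* and *Tyrobp*, *Ptprc*, which encodes CD45, had 1 count, and the 1 gene tested, *Lyz2*, was differentially expressed with a log2 fold change of −1.42 (adjusted *p* = 0.0153). *Lyz2* made up most of the sum in SCA1-High-FAPs. The untested genes of the list differed in direction, with 15 counts of *Cd14* and 32 of *Csf1r* in all SCA1-High-FAPs libraries and 46 and 58 in those of SCA1-Low-FAPs, against 27 and 6 for *Cd68*. Endothelial markers summed to 1.83 to 7.10 CPM against 0.48 to 7.39 CPM and myogenic markers to at most 6.59 CPM against at most 15.2 CPM, with *Pax7* at 0 in all libraries. Pericyte and smooth muscle markers summed to 26.2 to 50.4 CPM against 29.2 to 67 CPM. Of the 3 tested, 1 was differentially expressed towards SCA1-High-FAPs and 2 towards SCA1-Low-FAPs, beside 4.36% and 3.32% of all tested genes. The part of the adipocyte, leucocyte and pericyte genes in the complement values was not tested.

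The genes lie in 5 stretches of the genome. *C4b*, *Cfb* and *C2* share the class III region of the major histocompatibility complex on chromosome 17, all on the minus strand, with 85 bases between *Cfb* and *C2* and 112 kb between *C4b* and *Cfb*. *C1ra* and *C1s1* face each other on chromosome 6 with 6.90 kb between them. Around *C4b*, *Cfb* and *C2*, 13 other tested genes lay within 100 kb, and none was differentially expressed by edgeR or DESeq2, with log2 fold changes of −0.84 to 0.78, a median of −0.03 and 1 gene at an unadjusted *p* under 0.05. Around all 8 genes there were 25 such neighbours, again none of them differentially expressed by edgeR or DESeq2 and 3 at an unadjusted *p* under 0.05, with log2 fold changes from −1.29 to 0.78. Each of these neighbours of *C4b*, *Cfb* and *C2* thus had a fold change smaller in size than any of those 3 genes.

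**Figure D4:**
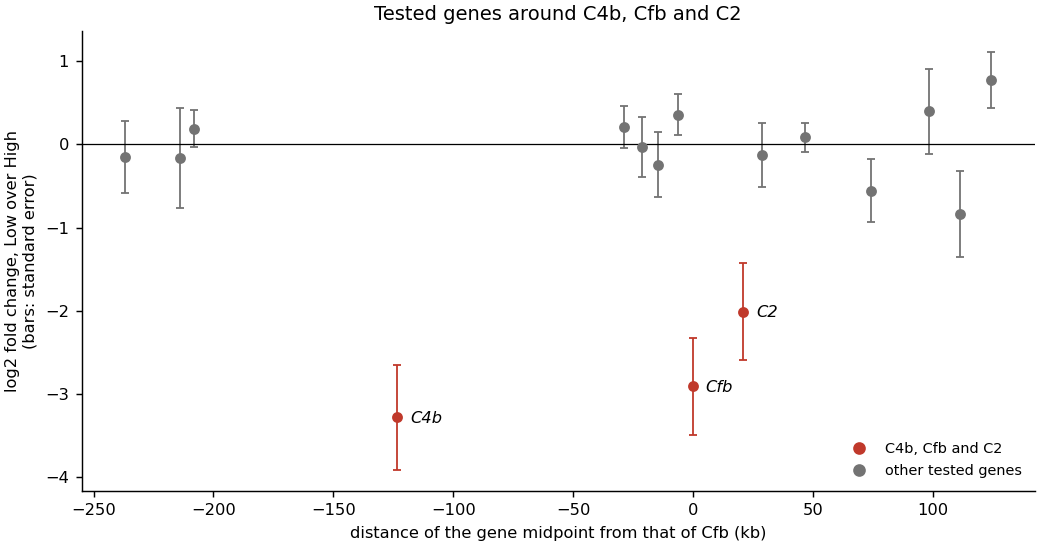
Log2 fold changes of the 16 tested genes of the class III stretch against the distance of each gene's midpoint from that of *Cfb* in kb, with bars for the standard error. *C4b*, *Cfb* and *C2* (red) lie between −3.28 and −2.01, and the 13 other genes (grey) lie between −0.84 and 0.78.

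Promoter sequences from RefSeq on GRCm38.p6 were held for 4 of the 8 genes. The 250 bases before the start are shown for *C3*, which had the lowest log2 fold change, for *C1s1*, the partner of *C1ra*, and for *Cd59a*, which did not follow the other genes, with matches to the motifs searched in capitals. Sequences are written 5′ to 3′ on the strand of the gene.
C3 (chr17:57228137-57228386, minus strand): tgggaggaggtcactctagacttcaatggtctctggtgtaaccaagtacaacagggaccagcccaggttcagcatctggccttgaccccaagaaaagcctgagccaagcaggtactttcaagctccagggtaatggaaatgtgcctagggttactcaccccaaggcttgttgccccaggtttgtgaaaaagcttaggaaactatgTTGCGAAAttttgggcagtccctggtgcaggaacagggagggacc
C1s1 (chr6:124542360-124542609, minus strand): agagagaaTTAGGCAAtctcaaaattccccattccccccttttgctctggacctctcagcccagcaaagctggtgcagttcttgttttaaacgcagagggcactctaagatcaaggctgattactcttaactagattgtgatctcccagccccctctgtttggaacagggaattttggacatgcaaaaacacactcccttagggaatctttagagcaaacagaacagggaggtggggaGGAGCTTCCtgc
Cd59a (chr2:104095551-104095800, plus strand): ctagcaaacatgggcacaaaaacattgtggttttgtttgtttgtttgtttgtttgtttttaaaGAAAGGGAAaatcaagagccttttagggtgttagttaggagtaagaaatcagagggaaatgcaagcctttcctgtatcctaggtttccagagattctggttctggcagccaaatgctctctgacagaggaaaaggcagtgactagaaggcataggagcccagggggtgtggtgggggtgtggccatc

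The motifs were the interferon-stimulated response element GAAANNGAA, the STAT-binding GAS element TTCNNNGAA, the NF-kB motif GGNNNTTCC and the C/EBP motif TTGCNNAA, each searched on both strands. *C3* held a C/EBP match, TTGCGAAA, at 45 to 38 bases before the start, where 9.56% of all 32851 promoters held at least 1 such match. *C1s1* held an NF-kB match, GGAGCTTCC, at 12 to 4 bases before the start used above, a motif found in 15.7% of all promoters. It also held a C/EBP match that reads TTAGGCAA on the strand shown, at 242 to 235 bases. Another start of *C1s1* was held as well. The same NF-kB match lay 50 to 42 bases before that start, and its 250 bases held no C/EBP match. The promoter of *Cd59a*, the gene for which no difference was detected, held an interferon-stimulated response element match, GAAAGGGAA, at 187 to 179 bases, as did 7.13% of all promoters. *C1ra* held none of the motifs, and no GAS match, present in 7.02% of all promoters, was found in any of the 4. A match is a description of the letters and not a site of binding.

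For each gene, the genes whose centred log2 CPM profile over the 8 libraries was nearest were taken as most alike, by the root mean square difference. The libraries share the difference between states and their depths, so likeness is a description only. *C3* was nearest to *Ntrk2* (0.68), *Hp* (0.74) and *Apoe* (0.78), and *C4b* came next. *C4b* was nearest to *Gdpd2* (0.35), *Sorbs2* and *Fap*, the last encoding fibroblast activation protein, and *Cfb* to *Ephx2* (0.28), *Fxyd1* and *Lgi2*. *C1ra* was nearest to *Rnf125* (0.16), *Ldb2* and *Zfp423*, the last a transcriptional regulator of preadipocytes, *C1s1* to *Gas6* (0.25), *Sp3os* and *Irs1*, and *C2* to *Htra1* (0.33), *Vegfc* and *Acsl1*. *Serping1* was nearest to *Ism1* (0.23), *Sned1* and *Angpt1*, and *Cd59a* to *Gpt2* (0.14), *Arhgap1* and *Mul1*. For the genes other than *C3*, the nearest of the 8 ranked 37 or farther, rank 37 being that of *Cfb* for *C4b*.

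**Figure D5:**
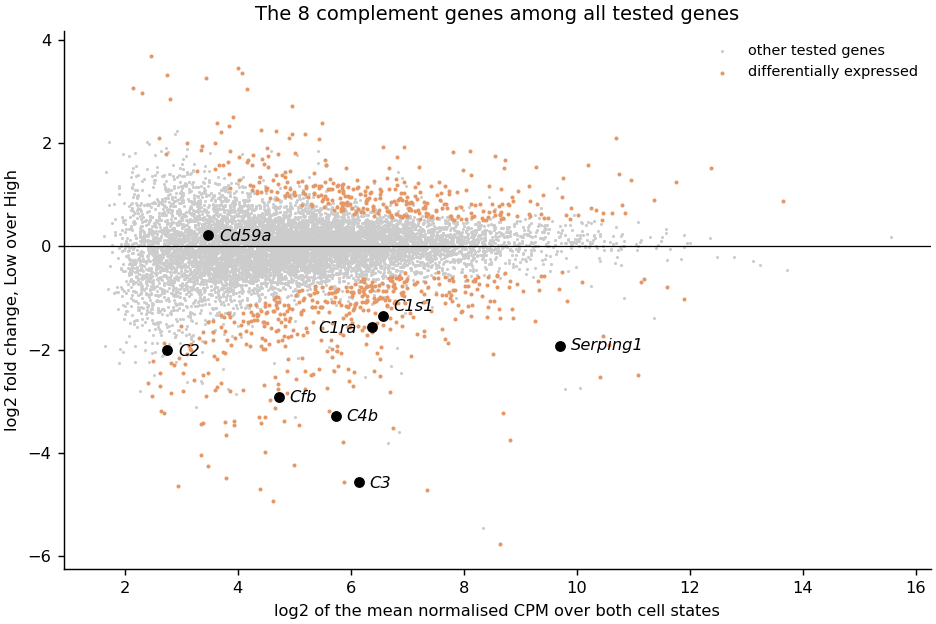
Log2 fold change of the 10181 tested genes against the log2 of the mean CPM of the 2 cell states, with differentially expressed genes in orange and the 8 complement genes in black. All but *Cd59a* lie below 0, and *C3* lies at −4.57.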

How the data were processed

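RNA of FAPs from hind limb muscles of *mdx* mice, with 4 replicates in each of the SCA1-High-FAPs and SCA1-Low-FAPs groups, was made into QuantSeq 3′ libraries. The authors trimmed the reads, aligned them with STAR to mm10 and assigned them to Ensembl genes with htseq-count, and the deposited values are these raw counts per gene, without normalisation. Reads with more than one alignment, 37.5% to 39.7% of those tallied in SCA1-High-FAPs and 40.8% to 43.3% in SCA1-Low-FAPs, were given to no gene. The strand setting is not given in the sources used here, and no batch is named in the labels. The entries of htseq-count that name no gene (no feature, 9.35% to 10.2% in the former and 7.87% to 8.83% in the latter) were left out. The part of these shares, which differ between the states, in the results was not tested. Of 31053 genes, 31011 were matched to GENCODE M21 for names and positions.

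The cell states were compared by quasi-likelihood F tests with robust estimation (edgeR 4.0.16, R 4.3.3) on all 8 samples, with TMM factors, filterByExpr (minimum 10 counts, 15 in total), a group term only and Benjamini-Hochberg adjustment over all 10181 tested genes. Where DESeq2 1.42.0 is not named, adjusted *p*-values are those of edgeR. SE is the log2 fold change over the root of F. Scripts were tested on simulated data. The alternatives were DESeq2, RLE and upper-quartile factors, other filters, no robust estimation, the replicate number as a block and each replicate left out. Likeness used log2 CPM with a prior count of 2. Promoters came from RefSeq on GRCm38.p6. Proteins were not used here, and 1 gene of the complement lists is not reported here.

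The 8 genes, the lists and the tests were chosen with earlier results of these data known. Named genes were the 8 genes and their paralogues, complement genes that were differentially expressed or listed by name, up to 5 genes of each context list by *p*-value, the 3 most alike genes of each and cell type markers. *Cebpb*, *Cebpd*, *Stat3*, *Nfkb1*, *Il6*, *Cxcl1* and *Socs3* were named after their values were seen. With 4 mice stated for each state, *p*-values measure the spread between these replicates.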

Additional observations from a re-analysis of the deposited data

Results flagged for a closer look

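Within each cell state the 15 tested complement genes were searched for a replicate far from the other 3, which gave 30 groups of 4, of which 3 were picked out. For independent, normally distributed values chance alone gives about 1 in 20 such groups. That rate need not hold for CPM of genes with few counts, nor for genes that share the same libraries. *C4b* stood at 24.7 CPM in replicate 3 of SCA1-Low-FAPs, where the other replicates lay between 3.38 and 4.90 CPM. *Cfd* stood at 42.8 CPM in the same replicate, with the others between 1.63 and 7.73 CPM. *Susd4*, which encodes a membrane inhibitor of complement, stood at 5.32 CPM in replicate 1 of SCA1-Low-FAPs, with the others between 0 and 0.264 CPM, close to the floor of the depth.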

How the results depend on the processing

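The direction of *C1ra*, *C1s1*, *C2*, *C4b*, *C3*, *Cfb*, *Serping1* and *Cd59a* was kept under every alternative that could be fitted, and the number called varied. Of the 8 complement genes, 4 were called by the main test, 7 by DESeq2 (where 4.86% of the genes it tested were called higher in SCA1-High-FAPs), 7 without robust estimation (4.52%), and 1 with at least 10 counts required in every sample, where 4 of them remained testable (5.02%). RLE factors (4.4%), upper-quartile factors (4.18%) and no filter (3.56%) left the number at 4. Leaving out each replicate gave 1 to 6, the lowest without replicate 4 of SCA1-Low-FAPs (2.38%), 2 without replicate 1 (2.45%) or 2 (2.99%) of that state and the highest without its replicate 3 (5.64%). Of the other complement genes, 1 of 7 tested was called in the main test. DESeq2 called 4 of 16 and edgeR without robust estimation 4 of 7, with 3 of the 4 higher in SCA1-High-FAPs in either fit. Without a filter 2 of 29 were called, all higher in SCA1-High-FAPs, and with replicates left out 1 to 4. The shares of all tested genes given above apply here too, and they ran from 2.38% to 5.64% with replicates left out. The interferon list, 3 of 15 tested in the main test, gave 7 of 21 by DESeq2 and 8 of 22 without a filter. It gave 5 of 11 with 10 counts in every sample and 2 to 6 with replicates left out. All these calls of the interferon list were higher in SCA1-High-FAPs. The acute phase list, 3 of 16 tested in the main test, gave 7 of 18 by DESeq2, with 6 higher in SCA1-High-FAPs. It gave 6 of 16 without robust estimation, with 5 higher there, and 1 to 6 with replicates left out. All genes called numbered 410 to 1017 with replicates left out, 410 and 417 without replicates 4 and 1 of SCA1-Low-FAPs and 1017 without its replicate 3. The log2 fold change of *Cr1l* ran from −0.18 to 0.048 with replicates left out, reversing to 0.048 without replicate 1 of SCA1-High-FAPs and to 0.0083 without that of SCA1-Low-FAPs. The causes were not tested.

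Deviations from the state means correlated at −0.05 to 0.01 between samples of equal replicate number and at −0.28 to 0.25 between samples of other numbers. Such correlations over all tested genes cannot show whether equal numbers share a mouse, which no label states. With the number as a replicate block in edgeR, 697 genes were called, 420 of them higher in SCA1-High-FAPs (4.13% of all tested genes). Called in that direction were 5 of the 8 complement genes, 3 of the interferon list and 6 of the acute phase list. Of the 4 other complement genes called, 3 were higher in SCA1-High-FAPs. The block in DESeq2 called 7 of the 8 complement genes higher in SCA1-High-FAPs, beside 4.15% of all tested genes. It also called 6 other complement genes (5 higher in SCA1-High-FAPs), 5 of the interferon list (all higher there) and 8 of the acute phase list (7 higher there). With the block in edgeR, *C2* lost its call (adjusted *p* = 0.067), while *C3* (4.5e-05) and *Serping1* (0.000185) gained theirs. Depth limits *C2*, *C3* and *Cfb* in SCA1-Low-FAPs, where single libraries held as few as 4, 3 and 5 counts.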
